A study of Mus musculus with 6 samples.

Results

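Stathmin and tubulin transcripts were compared between mouse naive CD8 T cells that were bright and dim for a Nur77-GFP reporter. The set comprised 10 genes found by symbol in the deposited table, out of 11162 genes listed: the stathmin gene Stmn1, the α-tubulin genes Tuba1a, Tuba1b, Tuba1c and Tuba4a, the β-tubulin genes Tubb2a, Tubb4b, Tubb5 and Tubb6, and the γ-tubulin gene Tubg1. All 10 were present, and all 10 passed the filter of a mean of at least 1 RPKM, a read density scaled to gene length and library size. The genes were selected on the RPKM difference between the populations that this table shows, which was known beforehand, so their levels and differences are given as a description and not as evidence that the family responds.

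Both populations came from the spleen of mice with the Nur77-GFP transgene Tg(Nr4a1-EGFP)GY139Gsat, in which the regulatory region of Nr4a1 drives green fluorescent protein, and both carried the OT-I T-cell receptor. Cells were sorted as CD8+, CD44lo, CD62Lhi and Qa2hi, and then as Nur77-GFPhi (GFP-hi, 3 libraries) or Nur77-GFPlo (GFP-lo, 3 libraries), with no treatment named. Age, sex and whether libraries came from separate mice are not given in the labels, so SDs and p-values measure the spread between these libraries, which may be technical. The reporter stands for Nr4a1 transcription over the recent past, since GFP is a stable protein, and it was the only feature by which the populations were separated.

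Microtubules are hollow polymers of α- and β-tubulin dimers, and γ-tubulin, in a ring-shaped complex at the centrosome, starts their growth. Stathmin, also called oncoprotein 18, binds free tubulin dimers and promotes the disassembly of microtubule ends, and phosphorylation by cell cycle, calcium-calmodulin and MAP kinases switches it off. Resting lymphocytes hold little stathmin and raise it when they enter the cell cycle, and microtubules in T cells carry the centrosome and secretory granules to the site of contact with a target cell. Cells also sense their free tubulin: when it is in excess, the factor TTC5 recognises the first residues of a tubulin chain on the ribosome and the mRNA is degraded.

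The coding starts of 3 β-tubulin genes are shown because they hold that autoregulatory element and because they show how alike the genes are. They were taken from GENCODE M21 transcripts, 60 bases from the start codon, with the first 12 bases, which encode the residues that TTC5 reads, in capitals.
Tubb5: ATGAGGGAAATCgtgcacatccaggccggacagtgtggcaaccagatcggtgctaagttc
Tubb4b: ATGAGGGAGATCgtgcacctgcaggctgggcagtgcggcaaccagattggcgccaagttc
Tubb2a: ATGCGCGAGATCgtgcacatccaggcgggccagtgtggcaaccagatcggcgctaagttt
In the first 12 bases Tubb5 had 1 mismatch to Tubb4b and 3 to Tubb2a. All 3 starts encode the same residues, Met-Arg-Glu-Ile, so these mismatches do not alter what TTC5 reads. Over the whole coding sequence, Tuba1b was 98.3% identical to Tuba1a and 98.4% identical to Tuba1c, whereas Tuba4a was 85.3% identical to Tuba1a. The β-tubulin genes were less alike, with 82.8% identity between Tubb5 and Tubb4b and 84.8% between Tubb5 and Tubb2a. Stretches of 50 bases that also occur in a transcript of another gene made up 72.9% of Tuba1a, 73.8% of Tuba1b and 61.0% of Tuba1c. The share was 50.9% in Tubb4b, mostly with its pseudogene Tubb4b-ps1, 49.6% in Tubb2a, mostly with Tubb2b, and 25.5% in Stmn1, mostly with the gene model Gm11223. It was 14.1% in Tubg1, 0.9% in Tuba4a, 0.1% in Tubb5 and 0.0% in Tubb6. How the authors treated reads that fit several genes is not given in the sources used here, so the split of signal among Tuba1a, Tuba1b and Tuba1c, and between Tubb2a and Tubb2b, is uncertain. Tubb5 was the abundant member least exposed to this.

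The labelled cell type and the libraries were checked first. Cd8b1, a chain of the CD8 co-receptor, had an RPKM of 785 to 839 and Cd3e, a chain of the T-cell receptor complex, one of 192 to 209, and 0 of the 7 T-cell markers tested passed the threshold (limma, 1 at an unadjusted p under 0.05, which 20.2% of all genes tested reached), as did 0 of the 3 thymocyte markers tested (1 at that p). Of the B cell markers 2 of 6 were listed, with a summed RPKM of 12.5 to 14.2 in GFP-hi and 10.9 to 11.3 in GFP-lo libraries, nearly all from Cd79b. Of the myeloid markers 2 of 6 were listed (1.34 to 1.99 against 1.58 to 2.5 RPKM), of the erythroid markers 1 of 6 (0.047 to 1.94 against 0.393 to 1.48 RPKM), and of the platelet markers 0 of 5. Of the NK cell markers Nkg7, a granule gene that CD8 T cells also express, had 298 to 316 against 276 to 284 RPKM. Eomes, the other one listed, had 5.49 to 8.14 against 5.86 to 7.68 RPKM, which overlapped, while Ncr1, Klrb1c and Klra8 were not listed. Of the CD4 T cell markers only Cd40lg, an activation-linked ligand, was listed, and it was lower in GFP-hi (14.2 to 22.7 against 35.4 to 46.8 RPKM, limma adjusted p = 0.011). Cd79b, Nkg7 and Cd3g (157 to 172 against 142 to 148 RPKM) did not overlap, with GFP-hi above, as in 17.1% of the genes tested. The thymocyte gene Dntt did not overlap either, with GFP-hi below (1.07 to 1.48 against 1.75 to 2.34 RPKM), as in 9.84%. Themis, another, was likewise below (34.5 to 35.5 against 35.9 to 36.7 RPKM), while Cd1d1 overlapped. Apart from Cd40lg, the genes without overlap did not pass the threshold (limma adjusted p = 0.075, 0.21, 0.165, 0.083 and 0.665, in that order). The part of the cells these genes mark in the results was not tested. Nr4a1 itself overlapped between the populations, with 37.0 to 90.9 RPKM in GFP-hi cells against 33.8 to 84.9 RPKM in GFP-lo libraries, so the sorted feature was not checked by its transcript. Replicate 2 of each population stood apart by heat-shock genes, with Hspa1a at 1100 and 1234 RPKM against at most 235 RPKM in the other 4 libraries. Of the 14 heat-shock and stress genes tested 0 passed the threshold between the populations (limma, 1 at an unadjusted p under 0.05), but 3 were lower in GFP-hi in the 4 libraries with lower heat-shock genes and 1 without GFP-hi replicate 2. Their median difference of -0.24 had no stable sign, at -0.40 without GFP-hi replicate 2 but 0.044 or 0.061 when the first or the third GFP-hi library was left out, and 0.24 when the second GFP-lo library was. Receptor genes of the nose, which naive T cells are not known to use, had a median RPKM of at most 0.038 in GFP-hi replicate 2 and GFP-lo replicate 1 and of at least 0.263 in the other 4.

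Of the 9351 genes tested, 230 were higher and 139 lower in GFP-hi cells at a limma adjusted p under 0.05 (203 higher and 187 lower after scaling by trimmed mean of M values). Called genes were 2.46% and 1.49% of the genes tested, or 3.95% in either direction. In that fit 2 of the 10 members, Stmn1 and Tubb5, were higher and 0 were lower. For 4 members (Stmn1, Tubb5, Tuba1a and Tuba1b) every GFP-hi library lay above every GFP-lo library, as in 17.1% of the genes tested, and for 0 members every one lay below, as in 9.84%. Nothing is read from these counts, since the same contrast was in view when the genes were chosen. The median difference over the 10 genes was 0.10 on the log2(RPKM + 1) scale, against 0.02 over all genes tested. It was 0.055 without GFP-hi replicate 2 and 0.058 with the trend with transcript length and GC content removed, and the median over all genes was -0.0063 after scaling by trimmed means. The differences were positive for 8 of the 10 members and for 55.5% of all genes tested. Recovered depths were 28450000 to 33954000 reads in GFP-hi and 26172000 to 35940000 reads in GFP-lo libraries, which puts 26.17 to 35.94 reads behind each kilobase of a gene with a value of 1 RPKM.

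Stmn1 (Entrez 16765, chromosome 4, 134468320 to 134473843, GRCm38.p6) was the member with the largest difference. Its level was 14.1, 12.8 and 14.1 RPKM in GFP-hi cells but 3.84, 3.92 and 3.16 RPKM in GFP-lo cells. The lowest GFP-hi library lay 3.28-fold above the highest GFP-lo library. Mean levels were 13.7 ± 0.718 against 3.64 ± 0.418 RPKM (SD, n = 3 each), a ratio of 3.76, and the difference was 1.66 ± 0.080 on the log2(RPKM + 1) scale (SE). It was the second highest difference of all genes tested on this scale, and came in place 16 with a pseudocount of 0.1 (1.89). With the longest GENCODE coding transcript of 1060 bases, the values correspond to about 424.5 to 462.4 reads in GFP-hi and 87.6 to 146.4 reads in GFP-lo libraries. In libraries of sorted cells, more cells with the transcript and more transcript in each cell cannot be told apart. Over the 19 alternative fits the difference ran from 1.58 to 1.89, with 1.75 in the 4 libraries with lower heat-shock genes.

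Within the groups Stmn1 varied about as much as other genes. Its SD within groups was 0.107 on the log2(RPKM + 1) scale, against a median of 0.0897 over the genes tested. GFP-hi replicate 2, one of the libraries with high heat-shock genes, had the lowest value of its population, and GFP-lo replicate 3 the lowest of all 6.

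**Figure D1:**
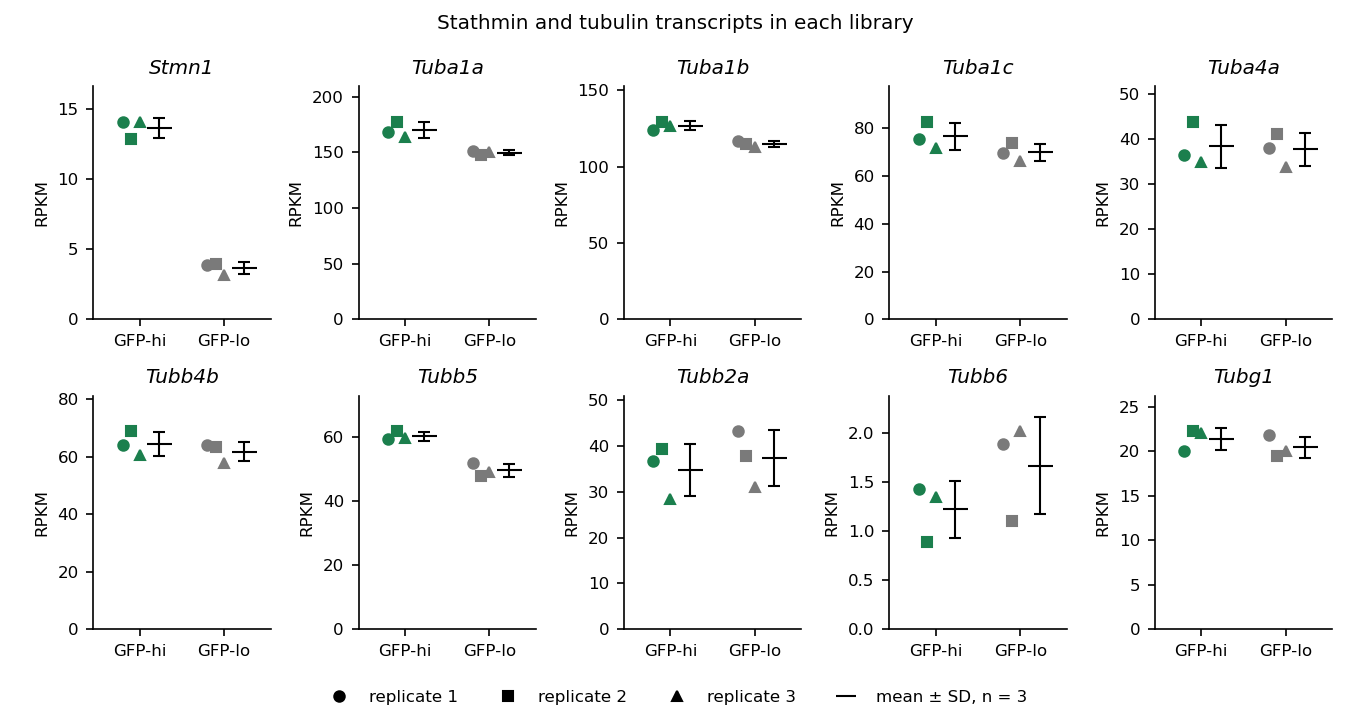
RPKM of the 10 genes in each library (symbols mark replicates, bars the mean ± SD, n = 3). All 3 GFP-hi libraries lie above all 3 GFP-lo libraries for Stmn1, Tubb5, Tuba1a and Tuba1b, and the groups overlap for the other 6 genes.

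The genes whose profile over the 6 libraries lay nearest to that of Stmn1 were Ccnb2, Tnfrsf9, Rrm2, Marcks and Pclaf, by the root mean square difference of centred log2(RPKM + 1) values. Ccnb2 encodes cyclin B2 of mitosis, Rrm2 a subunit of the enzyme that makes deoxynucleotides, and Pclaf a partner of the replication clamp. Tnfrsf9 encodes the costimulatory receptor 4-1BB, and Marcks an actin-binding protein of the inner membrane. The difference from Stmn1 was 0.132 for Ccnb2 and 0.231 for Pclaf, against a median of 0.833 over all other genes tested. These neighbours depend on the pseudocount, which compresses low genes: with 0.1 in its place, Rrm2 came first (0.101), while Tnfrsf9 came in place 10, Marcks in place 17, Ccnb2 in place 18 and Pclaf in place 155. The nearest after Rrm2 were then Izumo1r, Cd38, Cd200 and Smo, at 0.153 to 0.272 against a median of 0.946. Stmn1 was the more abundant transcript per length, with a mean of 8.66 RPKM over the 6 libraries against 2.46 RPKM for Ccnb2 and 4.19 RPKM for Tnfrsf9. The nearest tubulin was Tubb5, at a difference of 0.701 and in place 364 of the genes tested. This likeness includes the difference between the populations by which Stmn1 was chosen.

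**Figure D2:**
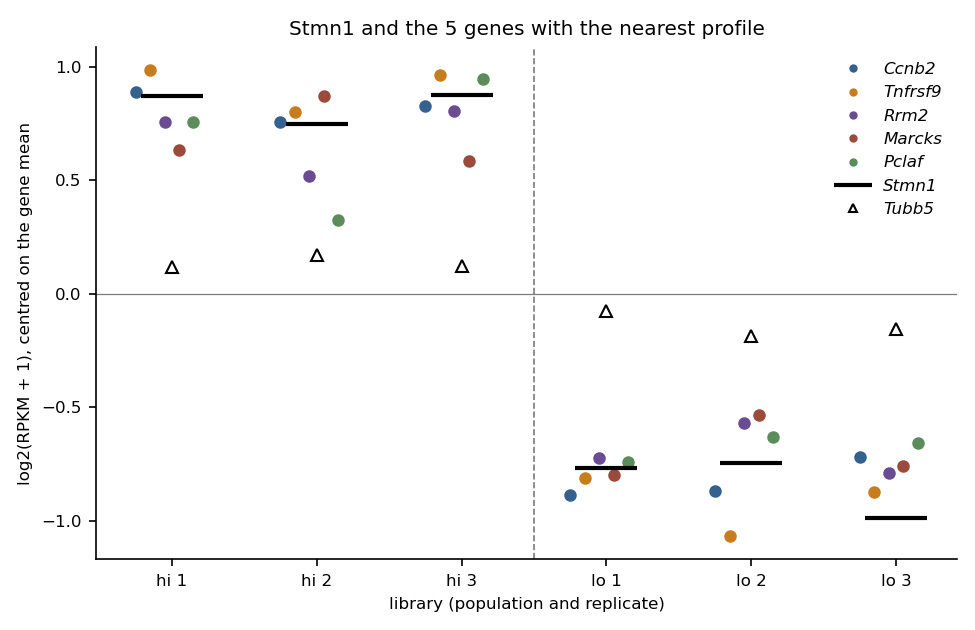
Values of log2(RPKM + 1) centred on each gene's mean, by library, for Stmn1 (black bars), the 5 genes nearest to it (filled points) and Tubb5 (open triangles). Stmn1 and its neighbours lie above 0 in the GFP-hi and below 0 in the GFP-lo libraries, and Tubb5 has the same order with a smaller difference (0.28 against 1.66).

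Tuba1a, Tuba1b and Tuba1c were the 3 most abundant members, and the differences of the α-tubulin genes were small. Tuba1a (Entrez 22142, chromosome 15, 98949847 to 98953501), the main isotype of young neurons and here the most abundant, was at 169, 178 and 164 RPKM in GFP-hi cells and at 152, 147 and 151 RPKM in GFP-lo cells. The groups did not overlap, with the lowest GFP-hi library 1.08-fold above the highest GFP-lo library. Mean levels were 170.1 ± 7.03 against 149.9 ± 2.17 RPKM (SD, n = 3 each), a difference of 0.18 ± 0.053 on the log2(RPKM + 1) scale (SE). Tuba1b (Entrez 22143, chromosome 15, 98931429 to 98934390), a ubiquitous isotype, was at 124, 130 and 127 RPKM in GFP-hi cells and at 117, 115 and 113 RPKM in GFP-lo cells. These groups did not overlap either, and the difference was 0.14 ± 0.049 (log2, SE). Neither gene passed the threshold over all genes, except with array quality weights. Both had small spreads, with SDs within groups of 0.0442 and 0.0296 on the log2 scale, and only 9.71% and 2.94% of the genes tested had a smaller one.

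Tuba1c (Entrez 22146, chromosome 15, 99029891 to 99038105) was at 75.3, 82.8 and 71.5 RPKM in GFP-hi cells and at 69.4, 73.7 and 66.4 RPKM in GFP-lo cells, so the groups overlapped. The difference of 0.13 ± 0.070 (log2, SE) was close in size to that of Tuba1b, with a wider error, and fell to 0.072 when 1 library was left out and to 0.052 in another of the alternative fits. Tuba4a (Entrez 22145, chromosome 1, 75214972 to 75221261) was at 36.5, 43.9 and 34.98 RPKM in GFP-hi cells and at 38.1, 41.2 and 33.9 RPKM in GFP-lo cells, which overlapped. Its difference of 0.02 ± 0.101 (log2, SE) was smaller than its error and turned negative in 7 of 19 alternative fits, among them quantile normalization (-0.006) and trimmed mean of M values (-0.003). In both genes, replicate 2 was the highest library of each population, the libraries in which Hspa1a was high. The part of the heat-shock state in this was not tested.

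Among the β-tubulins, Tubb5 was higher in GFP-hi cells whereas Tubb4b, Tubb2a and Tubb6 overlapped. Tubb5 (Entrez 22154, chromosome 17, 35833920 to 35838301), the class I β-tubulin of most tissues, was at 59.3, 61.8 and 59.6 RPKM in GFP-hi cells and at 51.8, 48.0 and 49.0 RPKM in GFP-lo cells. The lowest GFP-hi library lay 1.15-fold above the highest GFP-lo library. Mean levels were 60.2 ± 1.33 against 49.6 ± 1.97 RPKM (SD, n = 3 each), a ratio of 1.21, and the difference was 0.28 ± 0.053 on the log2(RPKM + 1) scale (SE). The direction held in all 19 alternative fits, from 0.24 to 0.31, and the gene passed the threshold in 13 of them. It did not pass when any GFP-hi library was left out, with limma adjusted p values of 0.088 (replicate 1), 0.052 (replicate 2) and 0.11 (replicate 3). Of the GFP-lo libraries, leaving out replicate 2 or 3 also ended it (0.13 and 0.12), as did keeping the 4 libraries with lower heat-shock genes (0.14).

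Tubb4b (Entrez 227613, chromosome 2, 25222158 to 25224702), another widely expressed isotype, was the most abundant β-tubulin transcript by RPKM. Of its 50-base stretches 50.9% also occur in other genes, so this order depends on how shared reads were treated. It was at 64.2, 68.7 and 60.5 RPKM in GFP-hi cells and at 64.1, 63.2 and 57.9 RPKM in GFP-lo cells, with overlapping groups and a difference of 0.06 ± 0.067 (log2, SE), which ran from 0.006 to 0.11 over the alternative fits. Tubb2a (Entrez 22151, chromosome 13, 34074278 to 34078008) was at 36.7, 39.3 and 28.5 RPKM in GFP-hi cells and at 43.2, 37.9 and 31.0 RPKM in GFP-lo cells, which overlapped. Its difference was -0.10 ± 0.143 (log2, SE), and its sign turned when the third GFP-hi library (0.034) or the first GFP-lo library (0.008) was left out. Replicate 3 was the lowest library of each population for Tubb2a, and likewise for its near copy Tubb2b (3.14 and 3.64 RPKM, against 4.28 to 6.42 RPKM in the other 4 libraries). The SD of Tubb2a within groups, 0.236 (log2), was larger than that of 95.6% of the genes tested. Tubb6 (Entrez 67951) was the scarcest member, at 1.44, 0.894 and 1.348 RPKM in GFP-hi cells and 1.89, 1.11 and 2.02 RPKM in GFP-lo cells. At a transcript length of 1758 bases this corresponds to about 53.4 to 119.2 reads for a library. The groups overlapped, and the difference of -0.25 ± 0.155 (log2, SE) ran from -0.42 to -0.077 in the 18 alternative fits that tested it.

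Tubg1 (Entrez 103733, chromosome 11, 101119904 to 101126423), the main γ-tubulin gene, was at 19.98, 22.2 and 22.0 RPKM in GFP-hi cells and at 21.8, 19.5 and 19.999 RPKM in GFP-lo cells. The groups overlapped, and the difference was 0.07 ± 0.066 (log2, SE), from 0.008 to 0.11 over the alternative fits.

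**Figure D3:**
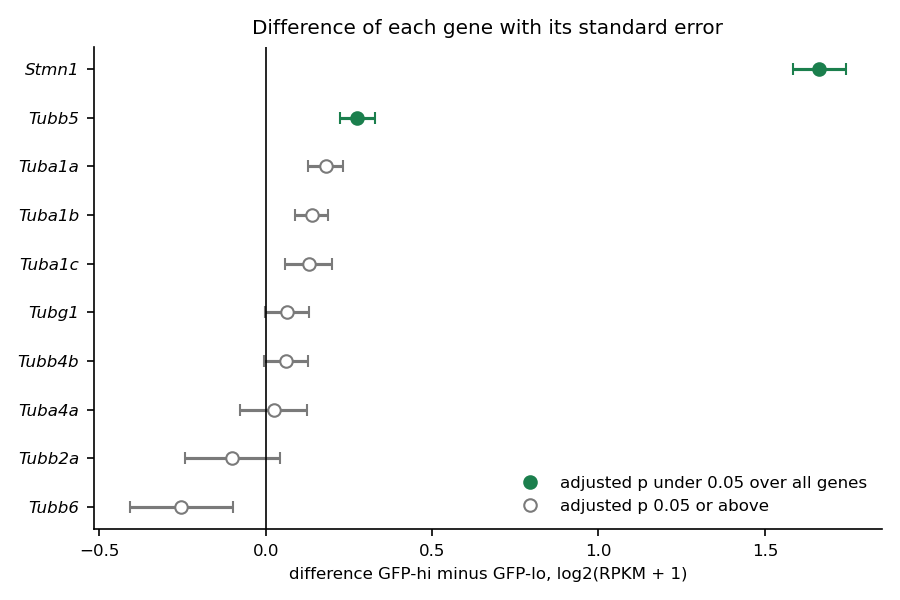
Difference between GFP-hi and GFP-lo on the log2(RPKM + 1) scale for each gene, with the standard error from limma (n = 3 each). Stmn1 (1.66) stands apart from the tubulins, which run from -0.25 (Tubb6) to 0.28 (Tubb5).

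Summed over genes, tubulin transcripts differed far less between the populations than Stmn1 did. RPKM is per length, so sums and shares over isotypes can be set side by side, within the limits of the shared stretches above. The 4 α-tubulin genes summed to 404, 434 and 397 RPKM in GFP-hi libraries and to 376, 377 and 364 RPKM in GFP-lo libraries, which did not overlap (ratio of means 1.10). The 4 β-tubulin genes summed to 162, 171 and 150 RPKM against 161, 150 and 140 RPKM, which overlapped (ratio of means 1.07). Stmn1 thus stood at 3.48, 2.96 and 3.55 RPKM for each 100 RPKM of α-tubulin in GFP-hi libraries, and at 1.02, 1.04 and 0.868 RPKM in GFP-lo libraries. The ratio of these means was 3.41, against 3.76 for Stmn1 alone.

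The isotype makeup of the α-tubulins overlapped between the populations. Tuba1a held 41.3 ± 0.385% of the α-tubulin sum in GFP-hi and 40.3 ± 1.15% in GFP-lo libraries, and Tuba1b 30.8 ± 1.06% and 30.9 ± 0.376% (SD, n = 3 each). In the β-tubulins, Tubb5 held 36.7%, 36.2% and 39.8% of the sum in GFP-hi and 32.2%, 31.9% and 35.014% in GFP-lo libraries, which did not overlap. Tubb4b held 40.1 ± 0.351% and 41.1 ± 1.16%, and Tubb2a 21.6 ± 2.25% and 24.7 ± 2.37% (SD, n = 3 each), both with overlapping libraries. Tubb6 held at most 1.44% in any library.

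**Figure D4:**
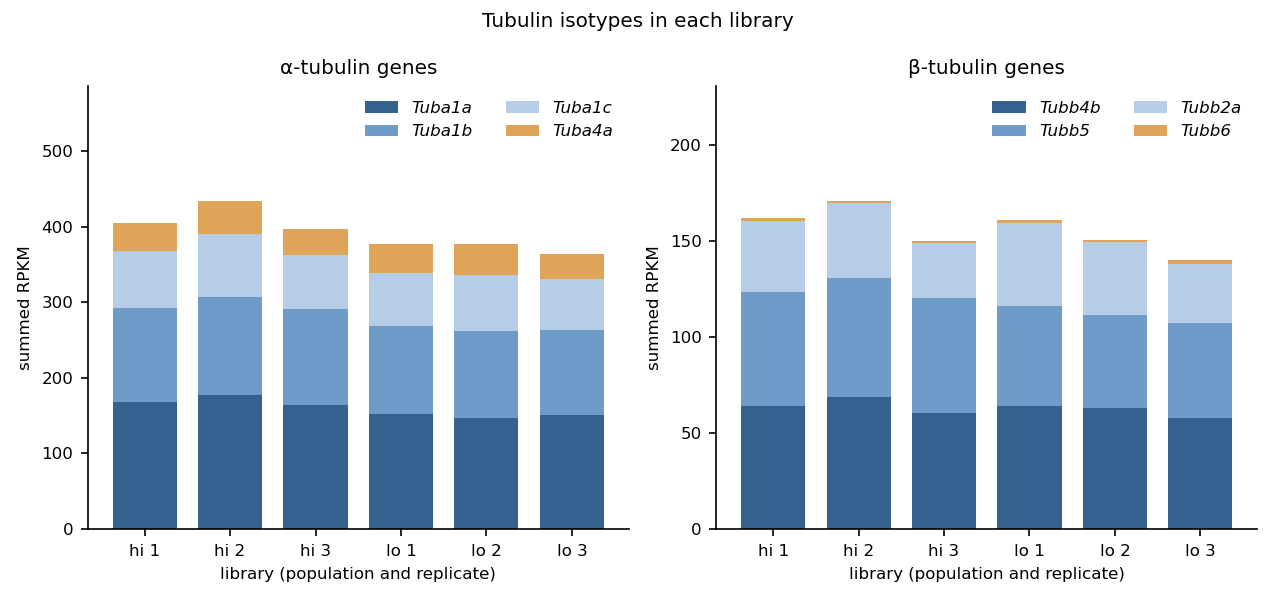
Stacked RPKM of the α-tubulin genes (left) and the β-tubulin genes (right) in each library, from 0. The α-tubulin sum is 397 to 434 RPKM in GFP-hi cells against 364 to 377 RPKM in GFP-lo libraries, with Tuba1a the largest part in all 6.

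The sequences before the starts of Tubb5, Tubb4b and Tubb2a are shown because these β-tubulin genes have similar coding parts and different values between the populations. Each is the 250 bases before the RefSeq start (GRCm38.p6, minus strand), at chr17:35838302-35838551 for Tubb5, chr2:25224703-25224952 for Tubb4b and chr13:34078009-34078258 for Tubb2a. Capitals mark the NF-Y box (CCAAT, or ATTGG on the other strand) and the cell cycle homology region (TTTGAA, or TTCAAA).
Tubb5: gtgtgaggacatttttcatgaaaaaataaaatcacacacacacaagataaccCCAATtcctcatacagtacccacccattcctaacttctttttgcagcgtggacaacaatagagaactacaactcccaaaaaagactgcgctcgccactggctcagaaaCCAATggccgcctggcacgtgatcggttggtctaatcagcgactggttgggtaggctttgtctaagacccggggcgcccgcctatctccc
Tubb4b: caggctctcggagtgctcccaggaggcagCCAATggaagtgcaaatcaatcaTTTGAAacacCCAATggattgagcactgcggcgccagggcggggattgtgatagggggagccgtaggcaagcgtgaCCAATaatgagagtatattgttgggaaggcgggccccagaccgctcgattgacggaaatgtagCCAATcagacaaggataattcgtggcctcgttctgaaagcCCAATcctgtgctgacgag
Tubb2a: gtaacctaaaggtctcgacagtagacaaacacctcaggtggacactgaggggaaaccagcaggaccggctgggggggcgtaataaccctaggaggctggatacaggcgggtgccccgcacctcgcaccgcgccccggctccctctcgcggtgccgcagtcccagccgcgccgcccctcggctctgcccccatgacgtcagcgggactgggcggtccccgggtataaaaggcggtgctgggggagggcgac
NF-Y is a factor that binds the CCAAT box of many promoters, and the cell cycle homology region is bound by complexes that hold cell cycle genes silent in resting cells. Tubb5 held 2 NF-Y boxes, 198 and 90 bases before the start, and Tubb4b held 5, between 221 and 19 bases before it, with 1 homology region at 198 bases. Tubb2a held neither. Of 32851 RefSeq windows of the same length, 33.8% held at least 1 NF-Y box, 10.1% held 2 or more and 16% held the homology region, and no marked motif overlapped another. The E2F site in the forms GCGGGAA (3.8% of windows) and TTTGGCGC (0.4%) was also searched on both strands and was in none of these 3 windows. A match is a run of letters and not a bound site. Any part of these motifs in the differences of the 3 genes was not tested.

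Other genes of the pathway were then counted from lists of named genes. Of the other tubulins 5 of 11 were listed and 3 tested, Tubg2, Tubd1 and Tubb2b, and 0 passed the threshold (limma, median difference 0.17). At an unadjusted p under 0.05 (limma) there was 1, against 20.2% of all genes tested. Tubb3, the class III isotype known from neurons, fell below the filter, at 1.39, 1.15 and 1.32 RPKM in GFP-hi cells and 0.608, 0.436 and 0.457 RPKM in GFP-lo cells. These groups did not overlap, and in the fit without a filter its difference was 0.61 ± 0.086 (log2, SE, limma adjusted p = 0.013). Tubb3 shared 0.0% of its 50-base stretches with other genes. It was singled out after its values were seen. Of the relatives of Stmn1, Stmn2, Stmn3 and Stmn4, 0 were listed in the table.

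Kinases that phosphorylate stathmin numbered 13 tested, with 2 higher and 0 lower, against 2.46% and 1.49% of all genes tested. At an unadjusted p under 0.05 (limma) there were 5, against 20.2% of all genes tested. Positive differences numbered 9 of 13, against 55.5% of all genes tested. Cdk2, a kinase of the entry into S phase, had 4.96 ± 0.124 RPKM in GFP-hi cells against 3.51 ± 0.248 RPKM in GFP-lo libraries (SD, n = 3 each), a difference of 0.41 ± 0.065 (log2, SE, limma adjusted p = 0.015). Camk4, a calcium-calmodulin kinase of T cells, had 21.6, 23.8 and 21.1 RPKM against 17.6, 17.8 and 16.3 RPKM, a difference of 0.35 ± 0.065 (log2, SE, limma adjusted p = 0.027). Both calls were lost in the 4 libraries with lower heat-shock genes and in most fits without 1 library: Cdk2 kept it in 2 of 6 such fits and Camk4 in 1 of 6, and over all these fits the limma adjusted p reached 0.11 for each. The differences themselves stayed at 0.36 to 0.49 for Cdk2 and 0.30 to 0.38 for Camk4. Uhmk1 went the other way, at 17.4, 12.4 and 15.5 RPKM in GFP-hi cells against 17.6, 21.2 and 20.5 RPKM in GFP-lo libraries. These groups did not overlap, at a difference of -0.375 ± 0.119 (log2, SE, limma adjusted p = 0.13). With array quality weights 5 of these kinases were higher and 1 lower. Cdk1, the mitotic kinase, lay below the filter, with 0.458 to 0.956 RPKM in GFP-hi cells against 0.150 to 0.476 RPKM in GFP-lo libraries, which overlapped. Aurkb also lay below it, with 0.658 to 1.185 RPKM against 0.123 to 0.240 RPKM, which did not overlap. In the fit without a filter 3 of these kinases were higher.

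Genes that fold tubulin, the CCT chaperonin, prefoldin and the tubulin cofactors, showed no single gene past the threshold (22 tested, 0 higher and 0 lower by limma, 7 at an unadjusted p under 0.05 against 20.2% of all genes tested). The differences were positive for 21 of the 22 genes, against 55.5% of all genes tested, with a median of 0.10 against 0.02 over all genes. That number was 20 after either quantile normalization or scaling by trimmed means, 16 after removal of the trend with transcript length and GC content, and 14 when the nasal receptor reads defined the 4 libraries kept. Cct7, the most abundant over the 6 libraries, had 91.2 ± 4.42 and 86.4 ± 3.68 RPKM (SD, n = 3 each) in overlapping groups. Cct5, nearly as abundant, had 93.3 ± 3.93 and 83.3 ± 1.62 RPKM (SD, n = 3 each) in groups that did not overlap (limma adjusted p = 0.15). Of the 7 genes of tubulin mRNA autoregulation 0 passed (limma, 0 at an unadjusted p under 0.05). Ttc5 had 17.1 ± 0.695 RPKM in GFP-hi cells against 16.5 ± 0.257 RPKM in GFP-lo libraries (SD, n = 3 each), and Cnot1, the scaffold of the CCR4-NOT deadenylase, 27.7 ± 5.46 and 27.8 ± 1.31 RPKM. Of the 19 genes of the γ-tubulin ring complex, its anchors and augmin 0 passed (limma, 2 at an unadjusted p under 0.05), the closest being Haus7, an augmin subunit, at 16.8 ± 1.1 RPKM in GFP-hi cells against 13.7 ± 0.574 RPKM in GFP-lo (SD, n = 3 each), with a limma adjusted p of 0.056. In this list 1 gene was higher after quantile normalization and 2 with array quality weights.

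Of 13 tubulin-modifying genes tested, 1 was higher and 0 lower, against 2.46% and 1.49% of all genes tested. The same gene was the only 1 at an unadjusted p under 0.05 (limma), which 20.2% of all genes tested reached. Svbp, the partner of the vasohibin enzymes that remove the last tyrosine of α-tubulin, was at 20.003, 23.0 and 20.3 RPKM in GFP-hi cells and at 17.3, 16.4 and 16.1 RPKM in GFP-lo cells. The groups did not overlap and the difference was 0.33 ± 0.067 (log2, SE, limma adjusted p = 0.036). The call was kept in 1 of 6 fits without 1 library, with adjusted p values up to 0.13 (limma), and lost in the 4 libraries with lower heat-shock genes (0.14). The vasohibin genes Vash1 and Vash2 were not listed in the table.

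Of 26 other microtubule-associated genes tested, 1 was higher and 1 lower, against 2.46% and 1.49% of all genes tested. At an unadjusted p under 0.05 (limma) there were 5, against 20.2% of all genes tested. Tacc3, which stabilises spindle microtubules in mitosis, was at 4.10, 4.13 and 4.23 RPKM in GFP-hi cells and at 2.51, 2.74 and 2.65 RPKM in GFP-lo cells, a difference of 0.51 ± 0.061 (log2, SE, limma adjusted p = 0.0048), and it kept the call in all 18 alternative fits that tested it. Clip1, which tracks growing microtubule ends, was lower in GFP-hi, with 12.6, 12.4 and 13.2 RPKM against 17.0, 16.2 and 16.03 RPKM, a difference of -0.34 ± 0.054 (log2, SE, limma adjusted p = 0.014). It lost the call when GFP-hi replicate 1 or either of GFP-lo replicates 2 and 3 was left out, and in the 4 libraries with lower heat-shock genes, with adjusted p values up to 0.085 (limma).

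Cell cycle genes were higher in the same population as Stmn1. Of 39 listed genes 27 were tested, with 18 higher and 0 lower, against 2.46% and 1.49% of all genes tested. The median difference was 0.57 (log2) against 0.02 over all genes. Some, such as Mki67 (mean 1.91 RPKM in GFP-hi and 0.218 in GFP-lo libraries) and Pclaf (1.91 and 0.123 RPKM), passed the filter only through GFP-hi. That count and that median thus partly follow from the filter. Without a filter 24 of 39 were higher (median 0.57), and with a mean of at least 5 RPKM the median was 0.28. This list overlaps with genes already known to differ in these libraries, so its direction is not independent evidence. The 39 genes summed to an RPKM of 369, 338 and 374 in GFP-hi against 274, 257 and 265 in GFP-lo libraries, a ratio of means of 1.36. The most changed, after Ccnb2 (1.65) and Rrm2 (1.39), were Pclaf (1.352), Top2a (1.30), Mki67 (1.24) and Bub1b (1.24), all on the log2(RPKM + 1) scale. With a pseudocount of 0.1 the order changed, to Pclaf (3.15), Mki67 (2.72), Ccnb2 (2.498), Birc5 (2.27), Bub1b (2.24), Ckap2l (2.06), Top2a (2.01), Kif11 (1.92) and Rrm2 (1.79). In levels, Stmn1 at 13.7 RPKM exceeded these genes in GFP-hi libraries, where Ccnb2 had 4.001 to 4.48 RPKM and Rrm2 5.16 to 6.54 RPKM. Bub1b lost its call without GFP-lo replicate 2 and in the 4 libraries with lower heat-shock genes (limma adjusted p = 0.053 and 0.083), at differences of 1.26 and 1.36. The number higher was 12 in each of these fits and 5 when a mean of at least 5 RPKM was required, which left 12 genes tested. The part of these genes' cells in the values of Stmn1 and Tubb5 was not tested.

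**Figure D5:**
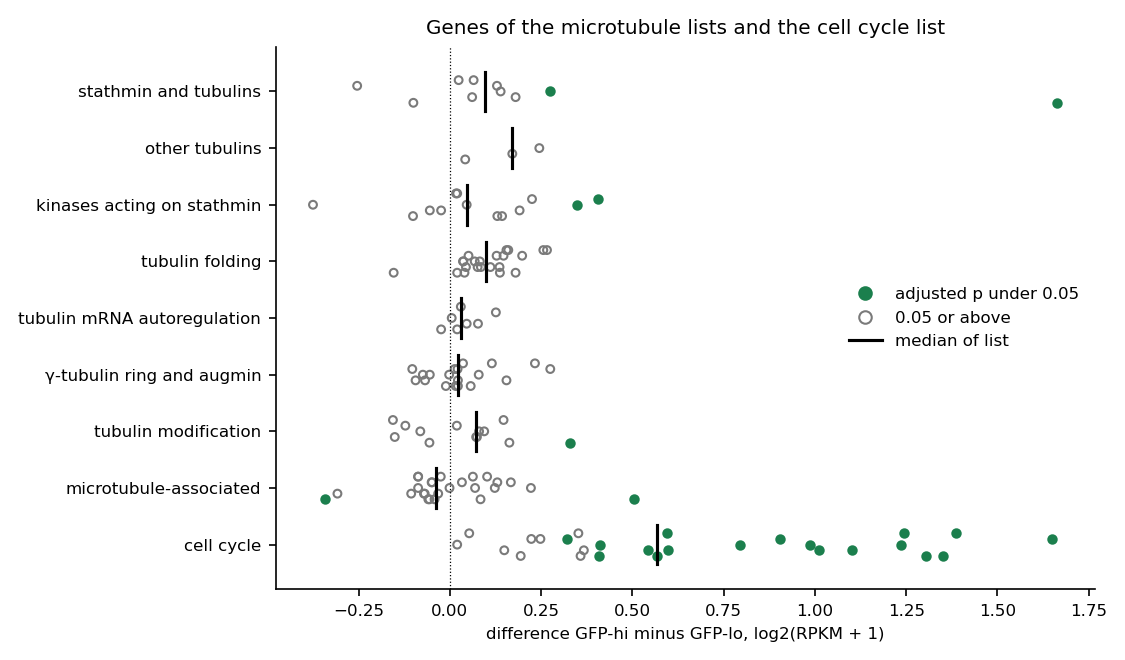
Differences on the log2(RPKM + 1) scale of the tested genes in each list, with filled points for a limma adjusted p under 0.05 and a bar for the median. The microtubule lists lie near 0 (medians from -0.04 to 0.17) with few filled points. In the cell cycle list 18 of 27 genes are filled, all to the right of 0, against 2.46% of all genes tested.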

How the data were processed

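RNA of sorted spleen CD8 T cells was turned into cDNA with the SMART-seq v4 kit and into libraries with the Nextera XT kit, per the labels' protocols. The values deposited by the authors are RPKM, 1 column for each library, per the file headers. STAR and mm10 are named in the submitters' processing notes. The counter, annotation, gene lengths and rule for listing genes are not given in the sources used here.

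Each column name is a sample title, and 15 symbols that had been turned into dates or were missing were looked up by Entrez ID. The 9351 of 11162 genes that averaged 1 RPKM or more were tested with limma (version 3.58.1, R 4.3.3) on log2(RPKM + 1) with a mean-variance trend and no covariate, two-sided, with Benjamini-Hochberg adjustment over all genes tested and a threshold of 0.05. The fit was tested on simulated data. A difference on this scale understates the change of low genes. Replicate numbers follow record order, and the labels name no pairs. Read depth was recovered from the step that 1 read makes in RPKM of genes with a single GENCODE M21 transcript. At the chosen depth 89.5% to 93.1% of low values came within 0.1 of a whole number of reads. Chance gives 20% at a depth fixed in advance, but here the depth was chosen on the same values. The score that the depth was chosen by was 15.2 to 16.4, against 2.75 to 3.65 when lengths were exchanged among genes. Whether PCR copies were removed is not given, and any left among the reads would make the true error exceed the counting error.

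The members and lists were chosen with earlier results of these data known. All members are named, from each list up to 6 called genes or else the most abundant gene, and the 5 nearest profiles of Stmn1 and of Tuba1a, the most abundant tubulin. Tubb3, Cdk1, Aurkb, Uhmk1, Ttc5, Cct5, Birc5, Ckap2l and Kif11 lie outside that rule. So do the neighbours of Stmn1 at the smaller pseudocount and the genes of the library checks. Stretches of 50 bases were compared between GENCODE M21 transcripts. Promoter windows came from RefSeq (GRCm38.p6), and those of 7 of the 10 members were searched. Coding starts of the α-tubulin genes are not reported here. Alternatives changed the pseudocount, filter, scaling, variance model and libraries. Plots used matplotlib 3.10.9 (Python 3.11.15).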

Additional observations from a re-analysis of the deposited data

How the results depend on the processing

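No paired analysis was made, because the replicate numbers follow record order and the labels name no shared animal or day. Whether libraries with the same number were prepared together is not given, and replicate 2 of each population shared high Hspa1a. The effect of a pairing on the calls was not tested. Stmn1 kept its direction and its adjusted p under 0.05 (limma) in all 19 alternative fits, and Tuba1a, Tuba1b, Tuba1c, Tubb4b and Tubg1 were positive in all 19, though as low as 0.052 for Tuba1c, 0.006 for Tubb4b and 0.008 for Tubg1. Members higher in GFP-hi numbered 1 to 2 when 1 library was left out, 4 with array quality weights, where Tuba1a and Tuba1b joined, and 1 in the 4 libraries with lower heat-shock genes. They numbered 2 in the other alternatives. Over all genes, 71 to 187 were higher and 59 to 128 lower when 1 library was left out, with fewer samples in each fit. The counts were 119 higher and 83 lower at a mean RPKM of at least 5, where fewer genes were tested, 783 and 499 with array quality weights, and 52 and 49 in the 4 libraries with lower heat-shock genes. With the trend with transcript length and GC content removed, 329 were higher and 291 lower. Higher genes made up 62.3% of the calls, but 52.1% with trimmed mean of M values, 53.1% with the length and GC trend removed and 51.5% in the 4 libraries with lower heat-shock genes. Both divisions of the libraries, the length and GC fit and the ranks and profiles at a pseudocount of 0.1 were added after seeing the data. Apart from the smaller fits named above, the cause was not tested. Depth limits Tubb6 most. Shared sequence limits Tuba1a, Tuba1b and Tuba1c most, and also Tubb4b (50.9% of 50-base stretches), Tubb2a (49.6%) and Stmn1 (25.5%).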

Other observations

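The profiles nearest to that of Tuba1a, the most abundant tubulin, did not include another tubulin. They were those of Snrnp25, a protein of the minor spliceosome, Tfpt, Smim7, Noct, a gene with a daily rhythm, and 1810034E14Rik, with root mean square differences of 0.0126 to 0.0158 from Tuba1a on the centred log2(RPKM + 1) scale, against a median of 0.123 over all other genes tested. Among the members, Tuba1b came first, at 0.0380 and in place 131, followed by Tubb5 at 0.0563 and in place 560, and Tuba1c at 0.0648 and in place 935. All 5 neighbours were less abundant, with means of 1.97 to 14.9 RPKM against 160.0 RPKM for Tuba1a.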
